A study of Caenorhabditis elegans with 6 samples.

Results

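The genes described here encode the mitochondrial respiratory chain and ATP synthase of the nematode Caenorhabditis elegans. They were chosen by name. A probe was a member where its sequence name maps to a symbol that starts with nuo-, nduf-, sdha-, sdhb-, sdhd-, ucr-, cox-, cyc- or atp-, or to gas-1, isp-1, mev-1 or lpd-5. This gave 50 probes of 46 genes, of 22490 gene probes of 18889 genes on the array. The rule covers 48 symbols of the reference, and cox-14 and cox-16, for which no probe matched, were not analysed here. None of the 12 subunit genes of mitochondrial DNA on the list used here matched a probe by name, so every member is encoded in the nucleus.

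Whole worms of the N2 strain were grown from synchronised eggs at 24 °C on agar with the insecticide chlorpyrifos (CPF, an organophosphate that inhibits acetylcholinesterase) at 0.5 mg/l in acetone, or, as the control, on agar with acetone alone. All plates carried E. coli OP50 as food. The labels give the worms as L3/L4 larvae 72 h old, whereas a shorter time and the late L3 stage stand in the study's methods, so the age is uncertain. Each sample pooled worms from several dishes. Each of the 6 arrays of printed long oligonucleotides held a CPF sample and a control sample in different dyes, with CPF in Cy5 on 3 arrays and CPF in Cy3 on the other 3. Each spot therefore gives a ratio of CPF over control within its own array, and the 6 arrays are independent replicates per the design. RNA from whole worms cannot tell fewer cells of a type from less RNA per cell.

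The respiratory chain sits in the inner membrane of the mitochondrion. Complex I (NADH dehydrogenase) and complex II (succinate dehydrogenase) pass electrons to ubiquinone, complex III passes them on to cytochrome c, and complex IV (cytochrome c oxidase) passes them to oxygen. Complexes I, III and IV pump protons as they do so, and ATP synthase makes ATP from the return of those protons. In C. elegans, mutants of gas-1, isp-1, mev-1 and nuo-6 have made the chain a model for oxidative stress and lifespan.

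Signs here follow the scanner files and their labels. Every column of the log2 ratios that the authors deposited correlates best with the scanner file of the same replicate number but the other dye orientation. By the labels of that table every sign given here would turn, while the p-values and the total counts would stay the same. Which of the labels is right is not known.

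The members were among the bright spots of the array. Of the 50 probes, 48 were tested, which 49.1% of all gene probes were. To be tested, a spot's median had to exceed its local background by 2 SDs of that background in 6 or more of the 12 channels. The 2 that were too dim in all 12 channels were the only probe of cox-10, which encodes an enzyme of heme A synthesis, and the dimmest of 3 probes of the complex I subunit nuo-4. Of the 48 tested probes, 45 were above background in all 12 channels, against 5963 of all 11033 tested probes. Brightness, the mean normalised log2 brightness over the 12 channels, was above the 90th percentile of all gene probes for 39 of the 48 member probes. Brightness also depends on the oligonucleotide, so these values describe spots and do not rank transcripts.

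**Figure D1:**
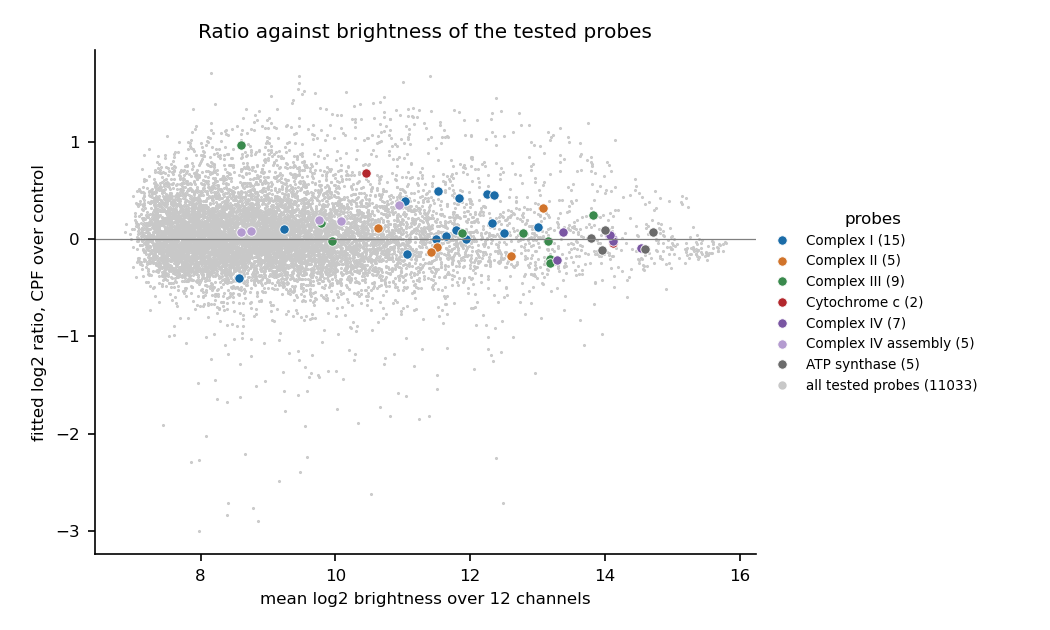
Fitted log2 ratio of CPF over control against mean log2 brightness over 12 channels, for all 11033 tested probes (grey) and for the 48 tested member probes, coloured by complex with the number of probes in brackets. ATP synthase and complex IV lie at the bright end close to a ratio of 0, and the largest member ratios belong to dimmer probes of ucr-2.1 and cyc-2.2.

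The complexes differed in brightness. The 5 ATP synthase genes lay between log2 13.79 and 14.71, and the 7 structural subunits of complex IV between 13.29 and 14.53, so that these 12 genes had brightness percentiles from 98.5 to 99.5. The 7 complex III genes ranged from 9.79 to 13.82 (brightest probe of each gene), the 14 complex I genes from 9.23 to 13.01 and the 5 complex II genes from 10.64 to 13.08. The 5 tested assembly factors of complex IV were the dimmest group, between 8.60 and 10.94, and did not overlap with the complex IV subunits. Saturated pixels were found on 3 member probes, those of cox-5A (30.3% of the pixels in the worst channel), atp-2 (10.5%) and cox-6B (9.5%).

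Across all tested probes, limma called 386 at an adjusted p under 0.05 (3.5%), 147 higher in CPF (1.33%) and 239 lower (2.17%). Of the 48 member probes, 1 was called higher and 0 lower, which is near these shares. At an unadjusted p under 0.05 there were 9 of 48 member probes (18.8%), against 27.3% of all tested probes. Of these, 8 (16.7%) were above 0 and 1 (2.08%) below 0, against 15.9% and 11.5% of all tested probes. Of the 48 member probes, 5 (10.4%) kept 1 sign over the 6 arrays, against 16.6% of all tested probes. The median log2 ratio of the 45 tested member genes (brightest probe of each) was 0.06, against 0.01 over all 9948 tested genes. Of the member probes, 46 of 48 had a fitted ratio within 0.5 of 0 on the log2 scale (95.8%, against 87.8% of all tested probes), and 0 exceeded 1 (2.28% of all tested probes did).

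The counts of called probes also depend on single arrays and on scaling. Without CPF in Cy5 replicate 1, 2 or 3 they came to 58, 81 and 94, and without CPF in Cy3 replicate 1, 2 or 3 to 806, 77 and 1323. The split of higher and lower calls was 147 to 239 in the main scaling, 760 to 521 with scale normalisation between arrays, and 4 to 50 with median centring within arrays, which moved the median log2 ratio of all tested probes to 0.12 from 0.02. CPF in Cy3 replicate 1 stood apart, with an SD of log2 ratios of 0.900 over all tested probes against 0.424 to 0.468 on the other 5 arrays.

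The called member was cyc-2.2 (ZC116.2), 1 of the 2 genes for cytochrome c, the carrier between complexes III and IV. On the 3 arrays with CPF in Cy5 its log2 brightness was 11.11, 11.47 and 10.56 in the CPF channel, against 10.34, 10.77 and 9.42 in the control channel. On the 3 arrays with CPF in Cy3 it was 11.64, 10.83 and 9.15 in the CPF channel, against 10.94, 10.58 and 8.65 in the control channel. The CPF channel was the brighter on every array, although the levels of the groups overlapped between arrays. The log2 ratios were 0.77, 0.70 and 1.14 with CPF in Cy5, and 0.69, 0.24 and 0.50 with CPF in Cy3. The fitted log2 ratio was 0.67 ± 0.11 (SE, n = 6 arrays, 95% interval 0.42 to 0.93), a 1.6-fold rise, with an adjusted p of 0.0249 by limma.

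The call of cyc-2.2 was close to the threshold, and it was lost with median centring within arrays (adjusted p = 0.177) and with a linear model of single channels (adjusted p = 1.00). The single-channel model had no term for the array, so it ignored that both channels share a spot. Within the CPF in Cy5 arrays the log2 ratio of cyc-2.2 was 0.87 (adjusted p = 0.00857 by limma), and within the CPF in Cy3 arrays it was 0.48 (adjusted p = 0.285). A fit of 1 orientation has no dye term, so it cannot tell CPF from dye. Leaving out CPF in Cy5 replicate 1, 2 or 3 gave adjusted p-values of 0.133, 0.0824 and 0.0801, and leaving out CPF in Cy3 replicate 2 gave 0.0671, while the fitted ratio stayed between 0.61 and 0.73. The call held when CPF in Cy3 replicate 1 (log2 ratio 0.62, adjusted p = 0.0124) or CPF in Cy3 replicate 3 (0.67, adjusted p = 0.0198) was left out.

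The other cytochrome c gene, cyc-2.1 (E04A4.7), was much brighter and did not pass the test. Its log2 brightness was 14.03, 14.03 and 14.54 in the CPF channel of the CPF in Cy5 arrays, against 14.17, 14.33 and 14.66 in the control channel. On the CPF in Cy3 arrays it was 13.39, 14.81 and 13.79 in the CPF channel, against 13.14, 14.90 and 13.62 in the control channel. The channels crossed, with a ratio above 0 on 2 of 6 arrays and a fitted log2 ratio of -0.04 ± 0.10 (SE, 95% interval -0.27 to 0.19, adjusted p = 0.823). The log2 ratio of cyc-2.2 exceeded that of cyc-2.1 on 6 of 6 arrays, by 0.71 ± 0.39 (mean ± SD, n = 6, range 0.33 to 1.26). No test was made of this difference, since cyc-2.2 was already called on these arrays. The methods do not say whether the probes separate these related genes.

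Marker genes of other cells also had ratios away from 0 on these arrays. Of 31 sperm genes with a probe (major sperm proteins and related genes), 26 were tested and 5 were too dim. Of the 26, 25 had a ratio above 0, against 5063 of all 9948 tested genes, and the median was 0.48. Limma called 3 higher (msp-50 at an adjusted p of 0.0499, msp-63 and ssp-11) and 0 lower, against 1.33% and 2.17% of all tested probes. At an unadjusted p under 0.05, 17 were above 0 and 1 below 0, against 15.9% and 11.5% of all tested probes. The median ratio of the 26 genes on the CPF in Cy5 arrays was 0.75, 0.69 and 1.32, and on the CPF in Cy3 arrays 0.35, 0.03 and -0.13. Their mean log2 brightness per array was 11.29 to 12.84 in CPF channels, against 10.21 to 12.38 in control channels. The major sperm protein genes are near-identical copies whose probes may share signal, as are several of the vitellogenin genes.

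Of 11 intestinal genes tested, 5 were called higher, all of them vitellogenins, which encode yolk proteins, and 1 lower (the cathepsin B gene cpr-1). Of all tested probes, 1.33% were called higher and 2.17% lower. The intestinal list split. All 6 vitellogenins had a fitted ratio above 0 (0.70 to 1.04), and the other 5 intestinal genes were all below 0 (-0.97 to -0.04), 3 of them at an unadjusted p under 0.05. The median of the vitellogenins was 1.15, 1.33 and 2.39 on the CPF in Cy5 arrays and 0.08, -0.10 and 0.00 on the CPF in Cy3 arrays. Among 8 germline and oocyte genes, all tested, 1 was called higher (oma-2) and 7 had a ratio above 0, with a median of 0.28. Muscle, neuron, pharynx and epidermis lists of 4 to 6 tested genes had 0, 0, 1 (tnt-4) and 1 (dpy-3) genes called higher and 0 lower, and medians of 0.05, -0.29, -0.03 and 0.17. At an unadjusted p under 0.05, 1 muscle and 2 neuron genes were below 0 and 0 above. At the same cutoff 4 germline and oocyte, 1 pharynx and 2 epidermis genes were above 0 and 0 below. Of all tested probes, 15.9% were above 0 and 11.5% below 0 at this cutoff. Whether these markers have a part in the ratio of cyc-2.2 was not tested.

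Complex I accepts electrons from NADH. Of its 15 tested probes, limma called 0 in either direction. At an unadjusted p under 0.05, 4 were above 0 and 1 below 0, against 15.9% and 11.5% of all tested probes. Its median log2 ratio over 14 genes was 0.12, and 12 of the 14 were above 0, against 5063 of all 9948 tested genes. The median was above 0 on every array, with 0.20, 0.09 and 0.01 on the CPF in Cy5 arrays and 0.42, 0.10 and 0.10 on the CPF in Cy3 arrays. It was 0.11 without CPF in Cy3 replicate 1.

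The highest ratios in complex I belonged to nduf-7 and lpd-5, whose human counterparts are the core subunit NDUFS7 and the accessory subunit NDUFS4. For nduf-7 the log2 ratios were 0.28, 0.09 and 0.20 on the CPF in Cy5 arrays, and 2.15, 0.54 and -0.31 on the CPF in Cy3 arrays. The fitted 0.49 ± 0.27 (SE, adjusted p = 0.257) dropped to 0.15 without CPF in Cy3 replicate 1, so that 1 array carried most of it. Without CPF in Cy3 replicate 3 the fitted ratio was 0.77 (adjusted p = 0.0475). For lpd-5 the log2 ratios were 0.96, 0.57 and 0.40 on the CPF in Cy5 arrays, and 0.65, -0.02 and 0.21 on the CPF in Cy3 arrays. They were above 0 on 5 of 6 arrays and came to 0.46 ± 0.13 (SE, 95% interval 0.17 to 0.75, adjusted p = 0.0794). Within the CPF in Cy5 arrays alone lpd-5 passed (0.65, adjusted p = 0.0402 by limma). Within the CPF in Cy3 arrays alone, where its mean was 0.28, it did not. A fit of 1 orientation cannot tell CPF from dye.

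Other complex I genes did not pass the test. The accessory subunit nuo-6 had a fitted log2 ratio of 0.42 ± 0.17 (SE, adjusted p = 0.159), which was 0.25 without CPF in Cy3 replicate 1. Its 6 array values ran from -0.05 to 1.14. The core subunit nuo-5 was above 0 on 6 of 6 arrays, between 0.10 and 0.84, with a fitted 0.39 ± 0.13 (SE, adjusted p = 0.108). The core subunit gas-1 had 0.11, -0.42 and -0.04 on the CPF in Cy5 arrays and 0.09, 0.08 and 0.36 on the CPF in Cy3 arrays. Its fitted ratio was 0.03 ± 0.11 (SE, 95% interval -0.22 to 0.29), and that of its paralog nduf-2.2 was 0.11 ± 0.10.

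At the low end, nduf-9 had a fitted log2 ratio of -0.15 ± 0.12 (SE) and the flavoprotein subunit nuo-1 -0.001 ± 0.107 (95% interval -0.25 to 0.24). The probes of nuo-4 disagreed. Its brightest probe (K04G7.4b) gave 0.00 ± 0.11 (SE), while a dimmer probe (K04G7.4a) was below 0 on all 6 arrays, between -1.13 and -0.11, with a fitted -0.40 ± 0.14 (SE, adjusted p = 0.127). The value of -1.13 came from CPF in Cy3 replicate 1, and without that array the fitted ratio of this probe was -0.26.

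**Figure D2:**
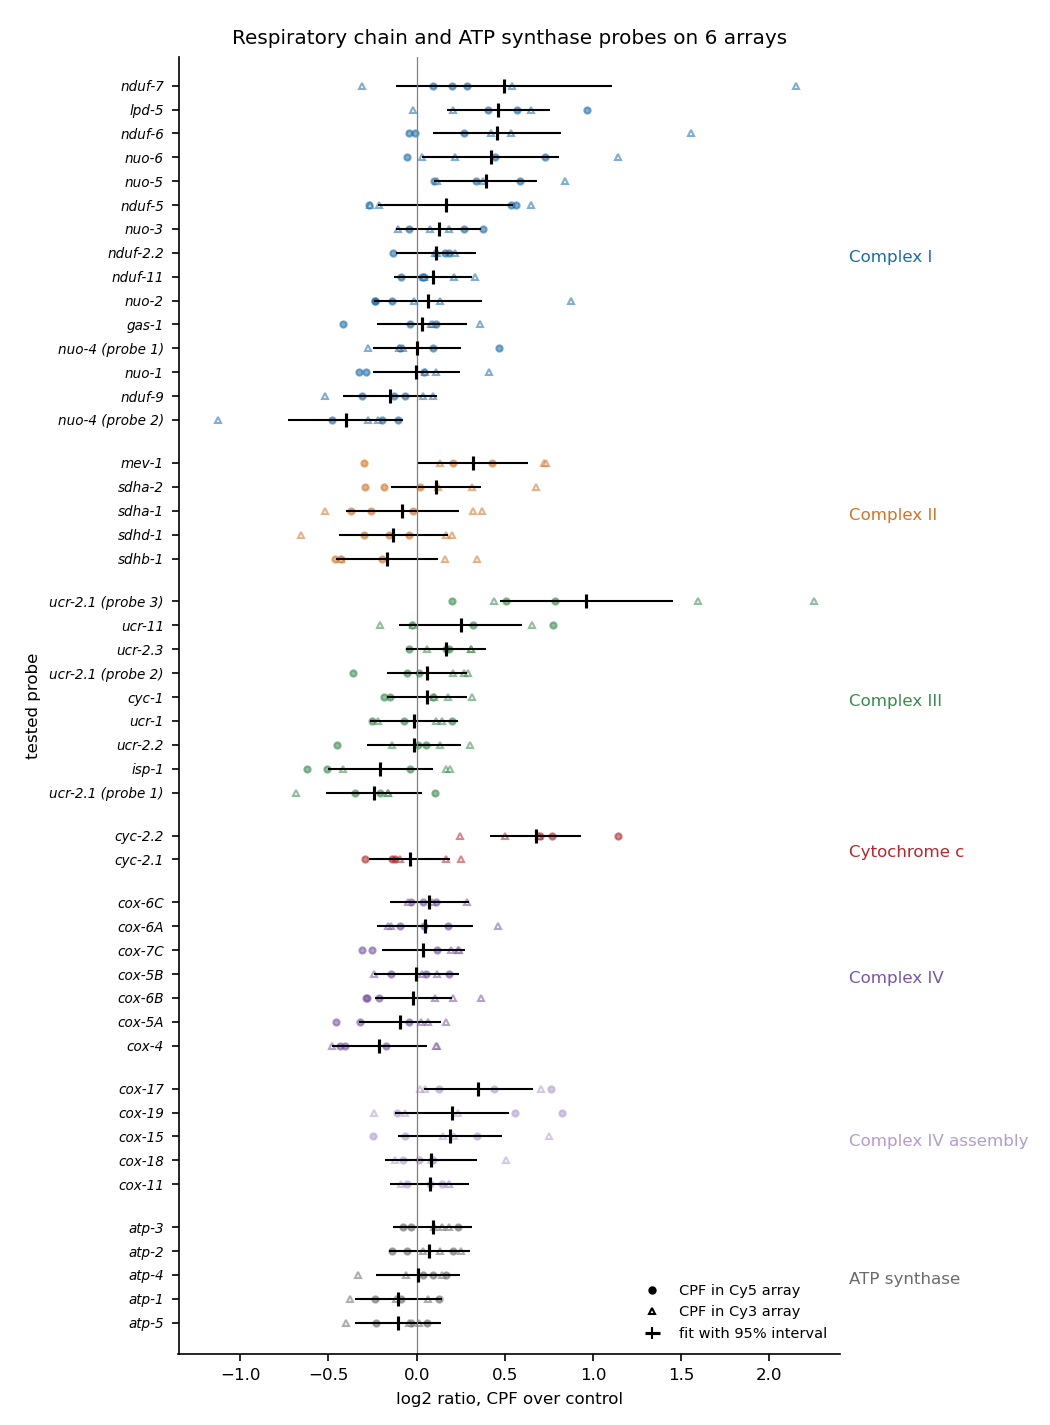
Log2 ratio of CPF over control of the 48 tested member probes on each of 6 arrays (filled circles, CPF in Cy5; open triangles, CPF in Cy3), with the fitted ratio and its 95% interval as a black tick and bar, grouped by complex. Only cyc-2.2 passed the adjusted threshold, and the points beyond 1.5 (nduf-6, nduf-7 and ucr-2.1 probe 3) come from CPF in Cy3 arrays.

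Complex II oxidises succinate and also belongs to the citric acid cycle. Limma called 0 of its 5 tested genes, and 1, mev-1, had an unadjusted p under 0.05, as did 27.3% of all tested probes. The membrane anchor mev-1, the C. elegans cytochrome b subunit, had log2 ratios of 0.43, 0.21 and -0.30 on the CPF in Cy5 arrays and of 0.72, 0.73 and 0.13 on the CPF in Cy3 arrays. The fitted value was 0.32 ± 0.14 (SE, 95% interval 0.01 to 0.63, adjusted p = 0.175). The flavoprotein gene sdha-2 had 0.11 ± 0.11 and its paralog sdha-1 -0.08 ± 0.14, and sdha-2 was above sdha-1 on 4 of 6 arrays. The lowest were the other anchor sdhd-1 (-0.13 ± 0.14) and the iron-sulfur subunit sdhb-1 (-0.17 ± 0.13, 95% interval -0.46 to 0.12).

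The ratios of complex II followed the arrays. All 5 genes were above 0 on CPF in Cy3 replicates 2 and 3, and 1 of 5 on each of the CPF in Cy5 arrays. The median was -0.26, -0.30 and -0.04 on the CPF in Cy5 arrays, and -0.43, 0.31 and 0.32 on the CPF in Cy3 arrays. The overall median of -0.08 turned to 0.06 without CPF in Cy3 replicate 1. The dye orientation also separates 2 series of scans, so dye and scan series cannot be told apart.

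Complex III passes electrons from ubiquinol to cytochrome c. Of its 9 tested probes, limma called 0, and 1 had an unadjusted p under 0.05, against 27.3% of all tested probes. The Rieske iron-sulfur protein isp-1 had log2 ratios of -0.62, -0.51 and -0.04 on the CPF in Cy5 arrays, and of -0.42, 0.17 and 0.19 on the CPF in Cy3 arrays. Its fitted value was -0.20 ± 0.13 (SE, 95% interval -0.50 to 0.09, adjusted p = 0.320). Cytochrome c1, encoded by cyc-1, came to 0.06 ± 0.10 (SE, 95% interval -0.17 to 0.28). The highest values by brightest probe were those of ucr-11, at 0.25 ± 0.15, and the core protein gene ucr-2.3, at 0.16 ± 0.10.

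The core protein gene ucr-2.1 had 3 probes, which did not agree. The brightest (VW06B3R.1a) was below 0 on 5 of 6 arrays, with a fitted -0.24 ± 0.12 (SE, adjusted p = 0.218). The next (VW06B3R.1b) gave 0.06 ± 0.10. The dimmest, also named VW06B3R.1b, had log2 ratios of 0.51, 0.78 and 0.20 on the CPF in Cy5 arrays and of 2.25, 1.59 and 0.44 on the CPF in Cy3 arrays. It was above 0 on all 6 arrays and averaged 9.09 ± 0.83 in CPF channels, against 8.13 ± 0.96 in control channels (SD, n = 6). Its fitted ratio of 0.96 ± 0.21 (SE, 95% interval 0.47 to 1.45) missed the threshold, with an adjusted p of 0.0507 by limma. It was above background in 5 of 6 CPF channels, against 3 of 6 control channels. Without CPF in Cy3 replicate 1 it passed (0.76, adjusted p = 0.0243), as it did without CPF in Cy3 replicate 3 (1.21, adjusted p = 0.00453). Without any other single array it did not pass (adjusted p = 0.116 to 0.201). Among the alternatives that left out no array, it passed in limma with the median brightness of the spot (adjusted p = 0.0394), scale normalisation between arrays (0.0137) and robust regression (0.0136). It also passed with array weights, whose estimate did not converge, and was not called in the rest. The ratio of the dimmest probe exceeded that of the brightest on 6 of 6 arrays, by 0.09 to 2.94.

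Complex IV reduces oxygen to water. For its 7 nuclear subunits limma called 0, and 0 had an unadjusted p under 0.05, the smallest being 0.109 for cox-4. The alternatives also called 0 of them. Fitted log2 ratios ran from -0.21 ± 0.12 (SE) for cox-4 and -0.09 ± 0.10 for cox-5A to 0.05 ± 0.12 for cox-6A and 0.07 ± 0.10 for cox-6C. The 95% intervals of the 7 genes lay between -0.48 and 0.32. The median was -0.28, -0.17 and -0.09 on the CPF in Cy5 arrays, against 0.17, 0.06 and 0.10 on the CPF in Cy3 arrays, so it stayed on 1 side of 0 within each orientation. Among the member probes, that of cox-6B had the smallest unadjusted p of the dye term (0.0337 by limma). Its ratio was -0.28, -0.22 and -0.28 on the CPF in Cy5 arrays and 0.36, 0.20 and 0.10 on the CPF in Cy3 arrays, with no overlap between the orientations. None of the member probes had an adjusted p under 0.05 for the dye term in limma (3 of 48 had an unadjusted p under 0.05, that is 6.25% against 9.89% of all tested probes).

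**Figure D3:**
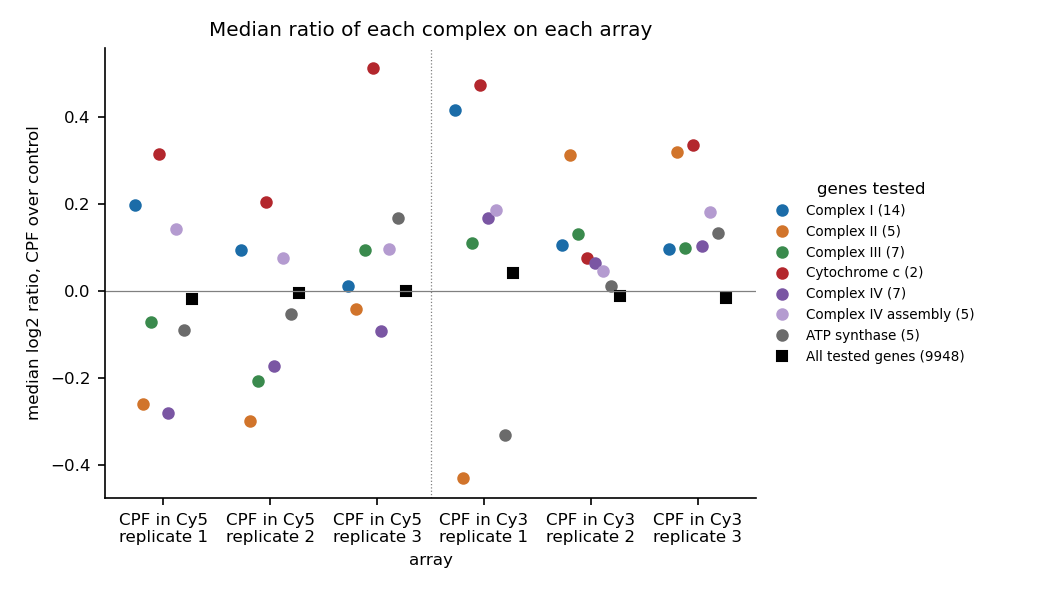
Median log2 ratio of CPF over control of the tested genes of each complex, and of all tested genes (black squares), on each of the 6 arrays, with the number of genes in brackets. Complex I lies above 0 on every array, complex IV lies below 0 on the 3 CPF in Cy5 arrays and above 0 on the 3 CPF in Cy3 arrays, and all tested genes stay between -0.02 and 0.04.

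The assembly factors of complex IV help to build the enzyme, several of them by supplying copper or heme A. All 5 tested genes had a fitted ratio above 0, against 5063 of all 9948 tested genes, with a median of 0.19. Limma called 0, and 1 had an unadjusted p under 0.05, against 27.3% of all tested probes. Leaving out 1 array moved the median to 0.0947 (CPF in Cy3 replicate 3), 0.0998 (CPF in Cy5 replicate 1) or 0.107 (CPF in Cy5 replicate 3). The gene with an unadjusted p under 0.05 was cox-17, a copper chaperone. Its log2 ratios were 0.44, 0.76 and 0.13 on the CPF in Cy5 arrays and 0.71, 0.05 and 0.02 on the CPF in Cy3 arrays. They were above 0 on 6 of 6 arrays, and the fitted value was 0.35 ± 0.14 (SE, 95% interval 0.04 to 0.66, adjusted p = 0.148). The copper factor cox-19 had 0.20 ± 0.14, with 0.83 and 0.56 on CPF in Cy5 replicates 1 and 2 and -0.24 to 0.23 on the other 4 arrays. The lowest were the insertase cox-18 (0.08 ± 0.11, and -0.006 without CPF in Cy3 replicate 3) and the copper factor cox-11 (0.07 ± 0.10).

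The 5 ATP synthase genes of the rule had the narrowest range of fitted ratios among the complexes as grouped here. They are only part of the enzyme, and its other parts, some with higher ratios, are described below. Limma called 0 of the 5 genes, and 0 had an unadjusted p under 0.05. Under the alternatives 0 passed the adjusted threshold. The α subunit atp-1 had log2 ratios of -0.09, -0.24 and 0.13 on the CPF in Cy5 arrays and of -0.38, -0.12 and 0.06 on the CPF in Cy3 arrays, for a fitted -0.10 ± 0.11 (SE, 95% interval -0.35 to 0.14). The catalytic β subunit atp-2 had -0.14, -0.05 and 0.20 on the CPF in Cy5 arrays and 0.04, 0.25 and 0.13 on the CPF in Cy3 arrays, for a fitted 0.07 ± 0.10 (95% interval -0.16 to 0.30). The stalk subunits atp-3 and atp-5 came to 0.09 ± 0.10 and -0.11 ± 0.11. The 95% intervals of these 5 genes lay between -0.35 and 0.32 on the log2 scale.

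Genes around the chain were compared by lists. Among 7 other ATP synthase parts and inhibitors, all tested, limma called 0 in either direction, 6 had a ratio above 0 and the median was 0.21. At an unadjusted p under 0.05, 2 were above 0 and 0 below 0, against 15.9% and 11.5% of all tested probes. The median of this list was 0.28, 0.27 and -0.11 on the CPF in Cy5 arrays, and 0.64, -0.05 and -0.01 on the CPF in Cy3 arrays. The gene of this list with the highest fitted ratio, asb-1 (0.34 ± 0.15, SE), is the germline form of subunit b. The widely used form asb-2 had 0.26 ± 0.11. The lists of other assembly factors (5 tested), ubiquinone synthesis (7), inner membrane carriers (5) and citric acid cycle (18) also had 0 called in either direction. At an unadjusted p under 0.05 they had 0, 0, 1 and 2 genes, against 27.3% of all tested probes. Their medians were 0.15, -0.02, 0.00 and 0.01, and the citric acid cycle ran from -0.29 (ogdh-1) to 0.75 (sucg-1, adjusted p = 0.0798).

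Of 10 tested genes of the mitochondrial stress response, hsp-60, the matrix chaperonin, was called higher (0.54 ± 0.12, SE, adjusted p = 0.0498, above 0 on 6 of 6 arrays), and 0 were lower. Of all tested probes, 1.33% were called higher. The call of hsp-60 was just under the threshold, and alternatives were examined for the members only, so its stability is not known. The log2 ratios of hsp-60 were 0.16, 0.002 and 0.43 on the CPF in Cy5 arrays, and higher at 1.18, 0.55 and 0.93 on the CPF in Cy3 arrays. Its partner chaperone hsp-6 had 0.01 ± 0.11. The mitochondrial ribosome, with 59 genes tested, had 0 called in either direction and a median of 0.16, with 47 genes above 0. At an unadjusted p under 0.05 there were 16 of its genes (27.1%), against 27.3% of all tested probes in either direction. All 16 were above 0 and 0 were below 0, against 15.9% above 0 and 11.5% below 0 of all tested probes. The vacuolar proton pump, a rotary ATPase outside mitochondria, had 0 of 20 called (4 at an unadjusted p under 0.05), 10 above 0 and a median of -0.01.

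**Figure D4:**
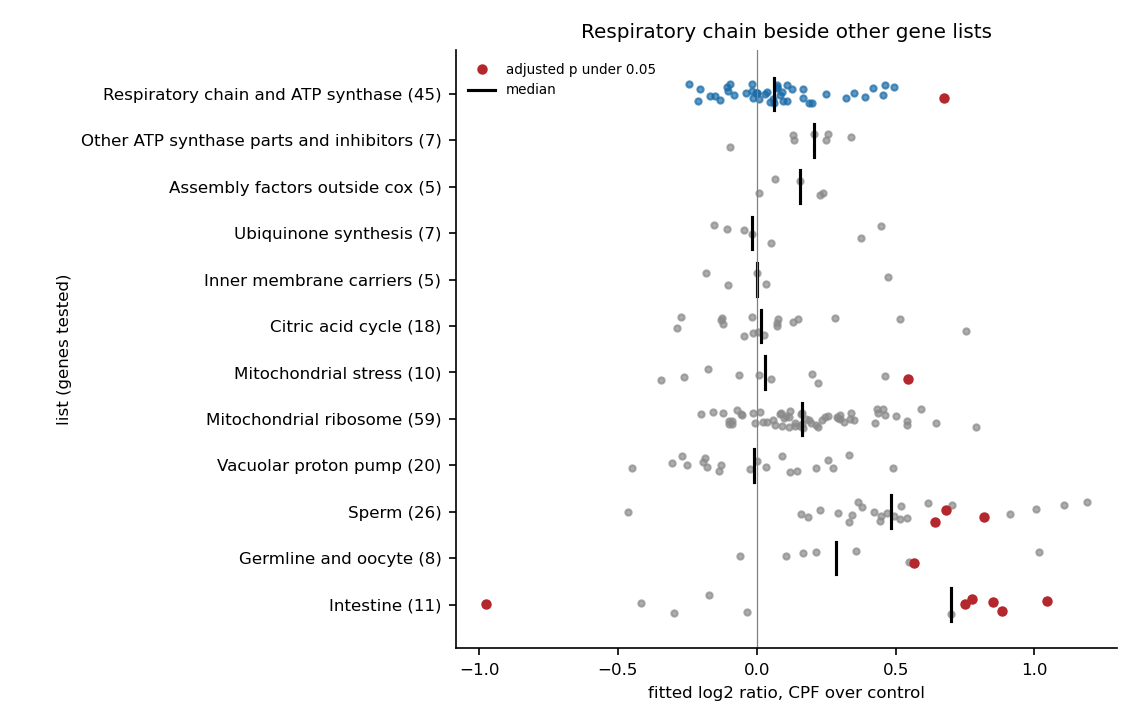
Fitted log2 ratio of CPF over control for each tested gene of the respiratory chain and ATP synthase (blue) and of other lists (grey), with genes at an adjusted p under 0.05 in red, the list median as a black bar and the number of tested genes in brackets. The respiratory chain, with cyc-2.2 in red, centres on 0.06, the sperm list has a median of 0.48, and the intestine list splits into 6 vitellogenins above 0 and 5 other genes below 0.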

How the data were processed

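The authors scanned the 6 arrays and quantified spots with ScanArray Express, and the deposited intensity values, per the file headers, are mean and median spot brightness with local background, neither subtracted nor normalised. The same deposited files hold, for each spot, the percent of its pixels that were saturated. The authors' deposited log2 ratios, made with limma 3.2.3 per the submitters' processing notes, served only as an alternative, because each column matched the scanner file of the opposite dye orientation, and columns hold 13608 to 20706 values. Here normexp with an offset of 50 corrected the background, loess normalised the log2 ratios within each array, Aquantile scaled brightness across arrays, and limma 3.58.1 in R 4.3.3 fitted CPF over control with a dye term to all 11033 tested probes (2-sided moderated test, Benjamini-Hochberg over all of them). The fit was also run on simulated ratios with independent noise for each probe and array. Real ratios correlated between arrays (0.68 for CPF in Cy5 replicates 1 and 2), so that run cannot show how calls hold under such correlation. Intervals are 95%. The number of arrays limits the precision. SEs, intervals and p-values of the limma fits are moderated. They combine the spread of a probe between arrays, after the dye term, with a variance estimated over all tested probes.

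Of the gene probes, 21382 were named by sequence name through the reference table and 1108 kept the name in the files, while 742 control and blank spots were left out. The brightest probe stood for a gene. Named members were those with an adjusted p under 0.05, the 2 highest and 2 lowest ratios of each complex, and gas-1, isp-1, mev-1, lpd-5, nuo-6, cyc-1, cyc-2.1, cyc-2.2, atp-1 and atp-2. Named genes of other lists were the called ones. Other genes (such as nuo-5, the dimmer probes of nuo-4 and ucr-2.1, cox-6B, asb-1 and sucg-1) were named after their values were seen. The members and lists were chosen with earlier results of these data known. Alternatives were background, normalisation, filter, dye term, replicate block, weights, robust and single-channel fits, the deposited table, each dye orientation alone and leaving out each array.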

Additional observations from a re-analysis of the deposited data

Results flagged for a closer look

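On the array CPF in Cy3 replicate 1, nduf-7 had a log2 ratio of 2.15, far from the other 5 arrays, which ran from -0.31 to 0.54. On the array CPF in Cy3 replicate 3, cox-18 had a log2 ratio of 0.51, apart from the other 5 arrays at -0.12 to 0.10. In both cases the gap to the nearest array, as a share of the whole range, exceeded Dixon's 95% critical value for 6 arrays. These were 2 of 31 named probes examined. The usual chance rate of about 1 in 20 does not hold for this set. Many of these probes were chosen by their ratios on the same arrays, and the arrays differed in spread.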

How the results depend on the processing

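The count of all probes called moved from 386 to 233 with plain background subtraction, 226 with no background correction, 54 with median centring within arrays, 1281 with scale normalisation between arrays, 256 for probes above background in all 12 channels, 205 with no dye term, 1591 with robust regression, 692 with the deposited table, 8 with a linear model of single channels, 629 with CPF in Cy5 arrays alone and 20 with CPF in Cy3 arrays alone. Array weights gave 5005, but their estimate stopped before it converged and gave 1 array a weight of 27.4. Leaving out each array gave 58 to 1323. Of the 48 member probes, 1 was called in the main setting. The count was 2 with the median brightness of the spot and with CPF in Cy5 arrays alone, 3 with scale normalisation and with robust regression, 12 with array weights, and 0 with median centring, the single-channel model and CPF in Cy3 arrays alone. Leaving out each array gave 0 to 3 (0 without any 1 of the CPF in Cy5 arrays or CPF in Cy3 replicate 2).

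With the replicate number as a block, fitted as an offset of the Cy5 over Cy3 ratio, 165 of all probes and 0 member probes were called. In that limma fit cyc-2.2 had an adjusted p of 0.0564. The numbers were not shown to pair arrays, since deviations of same-numbered arrays in the CPF over control ratio correlated at 0.103, -0.0788 and 0.271. That ratio is not the quantity to which the block was fitted. Signs in the alternatives, the deposited table included, follow the scanner labels, and by the labels of that table its values would turn (cyc-2.2 from 0.60 to the same size below 0). By the scanner labels the ratio of cyc-2.2 stayed above 0 in all 22 alternatives (0.48 to 0.87) and its call held in 14, with adjusted p of 0.177 under median centring and 1.00 under the single-channel model among the others. Several alternatives could not change this ratio. No normalisation between arrays repeated the main fit, its call included. The changes of filter or dye term, the replicate block and the single-channel model left the ratio at 0.67.

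The medians of complex I, cytochrome c and the complex IV assembly factors were above 0 in all 23 alternatives, with signs by the scanner labels. Those of complexes II, III, IV and ATP synthase were on both sides of 0, within -0.17 to 0.10. Several alternatives could not move a median, so the 23 are not separate checks. No normalisation between arrays, no filter, no dye term, the replicate block and the single-channel model left the fitted ratios as in the main setting. The assembly median of 0.19 moved to 0.29 with median centring, 0.074 with array weights, 0.079 with the deposited table and 0.054 with CPF in Cy5 arrays alone, and leaving out each array gave 0.095 to 0.23. With signs by the scanner labels, 0 of the named members passed the threshold with the opposite sign in any alternative.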
